A study of Mus musculus with 56 samples.

Results

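CD8 T cells that recognize the same model antigen were compared after their first encounter with it through pregnancy or through a skin graft. The comparison used 7 of the 31 samples of the series (14 of 56 libraries): 3 samples named N+P C5 and 4 named Sensitized, each from 1 mouse and each sequenced as 2 technical libraries, which were summed and counted once. All mice were young adult C57BL/6 females, and the cells came from pooled spleen and lymph nodes of each animal. The Sensitized mice had rejected a skin graft from a male 2W-OVA.BALB/c donor, a strain that carries the antigen in all its cells, and were sampled about a month or more later without any pregnancy. The N+P C5 mice had received no graft, were mated with a male of that donor strain so that part of the fetuses carried the antigen, and were sampled in the first days after delivery. All cells bound the OVA:Kb tetramer, a reagent that holds 1 peptide of the antigen and so marks fetus/graft-specific T cells (TFGS). From the pregnant mice, TFGS that carried both PD1 and CD73 were sorted, whereas TFGS of the Sensitized mice were taken without that gate. Route of priming, gate and time since antigen therefore changed together and cannot be told apart here, and the comparison also holds no cells other than those with this 1 specificity. Mice of the 2 groups were not paired.

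Naive CD8 T cells that meet antigen together with inflammation divide and acquire cytotoxic granules, inflammatory chemokine receptors and natural killer (NK) cell lectin receptors, and some persist as memory cells. Antigen met without inflammation or over a long time is known to leave CD8 T cells with raised inhibitory receptors and with transcription factors of the NFAT and TOX families. In pregnancy, fetal antigen reaches the mother through the placenta, and maternal T cells that recognize it are generally held in a hypofunctional state. Rejection of a skin graft is a standard way to raise memory T cells against the donor.

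The 7 samples held 20623004 to 54809406 assigned read counts, with 27028748 to 50176584 in N+P C5 and 20623004 to 54809406 in Sensitized (exact permutation test, two-sided p = 0.971). Between 15625 and 16750 genes had a count in N+P C5 and between 15045 and 17199 in Sensitized (p = 0.8 by the same exact test). Ribosomal RNA took 10.6 to 22.5% of counts in N+P C5 and 8.08 to 18.7% in Sensitized (exact p = 0.229), and mitochondrial mRNA took 1.31 to 2.47% and 1.27 to 3.30% (exact p = 0.743). The smallest p that this exact test can give with 3 against 4 mice is 0.0571. Each library was made from 200 cells, and the 2 technical libraries of a sample correlated at 0.700 to 0.933 across genes. Over the genes tested, samples correlated at a median of 0.921 within N+P C5, 0.880 within Sensitized and 0.905 between the groups. Levels below are CPM, read counts per 1000000 assigned reads after edgeR's TMM scaling, and fold changes are N+P C5 minus Sensitized on the log2 scale with their standard error (SE). The SE was worked back from the fold change and the statistic of edgeR's quasi-likelihood test, and is least certain for genes near 0 in 1 group. In bulk samples of this kind, fewer cells expressing a gene and less RNA per cell cannot be told apart.

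The cells of both groups carried the transcripts of CD8 T cells. Cd8a, a chain of the CD8 co-receptor, stood at 1420.4, 1143 and 887 CPM in N+P C5 and 929.9, 966, 853 and 803 CPM in Sensitized, and these ranges overlapped (log2 fold change 0.37, SE 0.28). Cd8b1, the other chain, differed by 0.01 (SE 0.32). Of the 12 CD8 T cell markers tested, none had an unadjusted p under 0.05, and their median log2 fold change was 0.04. Cd44, which rises on antigen-experienced T cells, stood at 181 to 320.1 CPM in N+P C5 and 114 to 251 CPM in Sensitized, against 50.8 ± 22.8 CPM (SD, n = 3) in Naive mice, which had neither graft nor pregnancy. Pdcd1, which encodes PD1 and was used by the sort, stood at 415, 178 and 143 CPM in N+P C5 and 49.4, 42.7, 41.9 and 59.4 CPM in Sensitized. Nt5e, which encodes CD73 and was also used by the sort, ranged from 119 to 163 CPM in N+P C5 and from 66.4 to 236 CPM in Sensitized. These 2 genes describe the gate and are given without a test.

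Among 19657 genes tested, 2 passed an adjusted p under 0.1 together with an absolute log2 fold change above 0.9 (0.0102% of genes; edgeR's quasi-likelihood test, Benjamini-Hochberg adjustment). Klrk1 was lower in N+P C5 and Gm4956 was higher, which is 1 gene, or 0.00509%, in each direction. At an unadjusted p under 0.05 there were 822 genes higher (4.18%) and 767 lower (3.9%), a total of 8.08%, and the median over all genes was -0.03. With no overlap between the 3 and the 4 mice there were 860 genes higher (4.38%) and 607 lower (3.09%). The number past both thresholds depended on the samples fitted and on the tool. It was 45 of 13535 genes (0.332%; 23 higher and 22 lower) when only these 7 samples were fitted, 32 of 19552 (0.164%; 25 higher and 7 lower) when 3 samples of other groups with under 9000 genes detected were left out of the fit, and 915 (4.65%; 363 higher and 552 lower) with DESeq2 on the same summed counts.

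**Figure D1:**
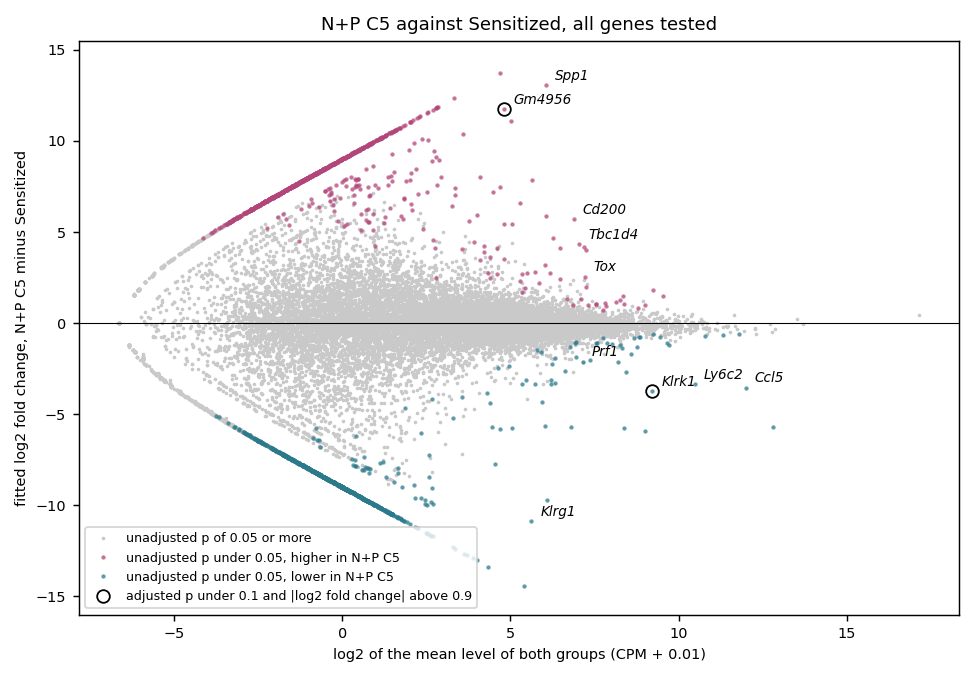
Each point is 1 of the 19657 tested genes, with the log2 of its mean level over both groups on the horizontal axis and the fitted log2 fold change, N+P C5 minus Sensitized, on the vertical axis. Colours mark an unadjusted p under 0.05 in each direction, and black circles mark the 2 genes past both thresholds, Klrk1 at -3.74 and Gm4956, which had 2 counts in all Sensitized mice together and so sits along the upper edge of genes nearly at 0 in 1 group.

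Klrk1 encodes NKG2D, an activating receptor that lets CD8 T cells and NK cells recognize stress-induced ligands, and it was the gene with the smallest p in the comparison. It stood at 177, 37.3 and 35.1 CPM in the N+P C5 mice and at 915, 1045, 1312 and 1153 CPM in the Sensitized mice. The groups did not overlap, and N+P C5 mouse 1 lay well above the other two. The mean was 13.3-fold lower in N+P C5 (log2 fold change -3.74, SE 0.56, edgeR adjusted p = 0.00316), and 16.2 ± 1.41 CPM (SD, n = 3) was measured in Naive mice. The call held in 18 of 21 alternatives (adjusted p 1.47e-16 to 0.212): it was lost without a filter on low counts (adjusted p = 0.134), without N+P C5 mouse 2 (0.103) and without N+P C5 mouse 3 (0.212). Here and for the genes below, the alternatives include fits by edgeR and DESeq2 with technical libraries kept separate. Those fits count each mouse more than once, so their p-values are too small. Hcst encodes DAP10, the adaptor through which NKG2D signals, and it stood at 208, 177 and 149.9 CPM and 451, 724, 390.2 and 288 CPM, again without overlap (log2 fold change -1.38, SE 0.44, edgeR adjusted p = 0.596). Klrk1 lies on chromosome 6 within the NK receptor gene complex (chr6:129587286-129600827, GRCm39), and Hcst on chromosome 7 (chr7:30117135-30119297).

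Klrk1 belongs to a family of lectin-like receptors, most of which are shared between NK cells and effector CD8 T cells. Of the 12 family members tested, 11 had lower fitted values in N+P C5, and 1 of them (Klrk1) passed both thresholds, against 0.00509% of all genes. With lower values, 6 had an unadjusted p under 0.05 (Klrk1, Klrc1, Klrc2, Klre1, Klrg1 and Klra9) against 3.9% of all genes. None had it with higher values. In 8 of 12 every N+P C5 mouse lay below every Sensitized mouse, against 3.09% of all genes, and the median log2 fold change was -2.99 (-5.02 without N+P C5 mouse 1). Klrg1, a marker of short-lived effector CD8 T cells, stood at 0, 0 and 0.155 CPM in N+P C5, which is 5 counts in all, and at 92.3, 81.7, 137 and 83.5 CPM in Sensitized. It was thus present in all Sensitized mice and nearly missing in the sorted N+P C5 cells, yet its adjusted p was 0.596 (edgeR). Klrc1 encodes the inhibitory receptor NKG2A and stood at 236, 22.3 and 27.3 CPM against 442, 522, 861 and 590.1 CPM. Klrd1 encodes CD94, the partner of NKG2A, and stood at 269, 107 and 136 CPM against 323, 510.5, 503 and 343 CPM, so its lowest Sensitized mouse lay close to N+P C5 mouse 1. The summed level of the 12 genes was 173 to 722 CPM in N+P C5 and 1886 to 2998 CPM in Sensitized. N+P C5 mouse 1 was the highest of its group for Klrk1, Klrc1 and Klrd1, and without mouse 2 or without mouse 3, which leaves 1 other mouse beside it, 3 members in place of 6 had an unadjusted p under 0.05. Members of this family are close relatives in sequence, and reads with several matches were removed upstream, so single members are uncertain.

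NK cells carry the same receptors, and their markers were read in the same libraries. The 6 NK markers summed to 2.61 to 12.7 CPM in N+P C5 and 72.3 to 145 CPM in Sensitized, most of which was Klrb1c, which encodes NK1.1 and is also found on activated CD8 T cells (9.43, 2.46 and 2.42 CPM against 53.3, 94.2, 65.5 and 126 CPM). Ncr1, which encodes the NK-defining receptor NKp46, was at 0 in all 3 N+P C5 mice and in 3 of 4 Sensitized mice, and at 1.90 CPM in Sensitized mouse 2. Klra8 was at or near 0 in all 7.

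**Figure D2:**
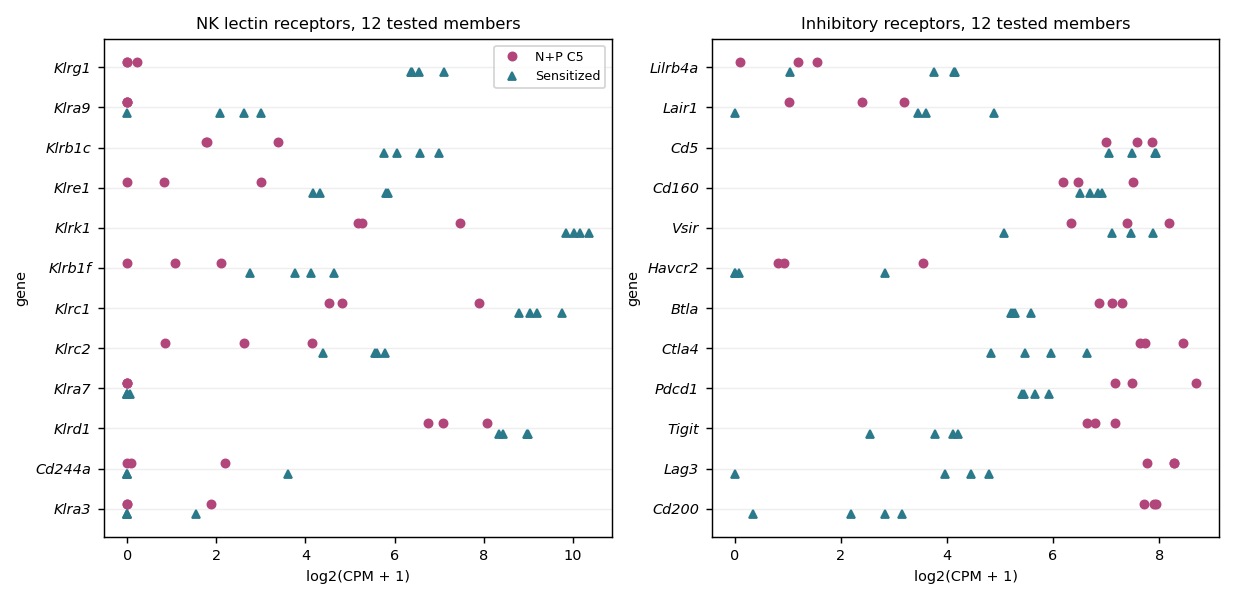
Levels of the 12 tested NK lectin receptors (left) and the 12 tested inhibitory receptors (right) in each mouse, on the horizontal axis as log2(CPM + 1), with circles for N+P C5 and triangles for Sensitized. All circles lie to the left of all triangles for 8 NK lectin receptors, and to the right for 6 inhibitory receptors, 1 of which is Pdcd1, used by the gate.

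Cytotoxic and effector genes were, by their fitted values, mostly lower in N+P C5, but none passed both thresholds. Of 12 cytotoxic granule genes tested, 4 had an unadjusted p under 0.05 and lower values in N+P C5 (Gzmk, Gzmm, Prf1 and Nkg7), against 3.9% of all genes, and none had it with higher values, and the median log2 fold change was -0.78. Prf1 encodes perforin, the pore-forming protein of the granules, and stood at 49.1, 57.96 and 52.9 CPM in N+P C5 and 301, 125, 298 and 201 CPM in Sensitized. The 3 N+P C5 mice were close together, and the lowest Sensitized mouse was still above them (log2 fold change -2.12, SE 0.63, edgeR adjusted p = 0.596, and 0.000461 to 0.839 over 21 alternatives). Gzmk, a granzyme of memory CD8 T cells, stood at 14.97, 19.7 and 11.9 CPM against 125, 218, 94.8 and 96.3 CPM. Gzmm, a related granzyme, stood at 13.1, 16.3 and 9.84 CPM against 101, 187, 148 and 98.4 CPM. Gzma and Gzmb, the granzymes of acute effector cells, overlapped between the groups. Of 11 effector transcription factors, 2 had an unadjusted p under 0.05 with lower values (Id2 and Stat4), a count that ranged from 0 to 6 over the alternatives and was 1 without any single N+P C5 mouse or without Sensitized mouse 2 or 3, and 6 lay below all Sensitized mice (these 2 and Tbx21, Zeb2, Prdm1 and Rora), against 3.9% and 3.09% of all genes. Id2, which sustains effector CD8 T cells, stood at 516, 467 and 565 CPM against 800.3, 1853, 1027 and 1036 CPM (log2 fold change -1.19, SE 0.37).

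Genes of inflammatory migration showed a similar split, with 4 of 16 at an unadjusted p under 0.05 with lower values (among them Cxcr6, Ccr2 and Itga1), against 3.9% of all genes, and 1 with higher values (Itgb1), against 4.18%. Without N+P C5 mouse 2 or mouse 3 the 4 became 2. Ccl5 encodes a chemokine that memory CD8 T cells store as transcript, and stood at 1073, 340.2 and 522 CPM in N+P C5 and 6619, 10756, 7458 and 5268 CPM in Sensitized. The means differed 11.7-fold, with no overlap (log2 fold change -3.54, SE 0.72, edgeR adjusted p = 0.251; 1.25e-14 to 0.839 over 21 alternatives, past both thresholds in 9). Ly6c2, one of the genes of the Ly6C surface protein of memory CD8 T cells, stood at 309.6, 273 and 173 CPM against 3299, 2656, 2582 and 1869 CPM (log2 fold change -3.37, SE 0.74, edgeR adjusted p = 0.278; 2.11e-10 to 0.839 over 21 alternatives). It has close paralogs, and its reads may not be fully separated from theirs. Cxcr6, which guides T cells to inflamed tissue, stood at 207, 57.7 and 61.4 CPM against 447, 534, 521 and 421 CPM. Itgb1, the beta chain of the VLA integrins, was the exception, at 1266, 632 and 1351 CPM in N+P C5 against 297, 363, 473 and 435 CPM in Sensitized. The other effector cytokines did not follow Ccl5. Of 13 cytokine and chemokine genes, 1 had an unadjusted p under 0.05 with lower values (Ccl5), against 3.9% of all genes. With higher values there were 2 (Il21 and Il10), against 4.18%, of which 1 was left without N+P C5 mouse 2. The median of the 13 was -0.07 and changed sign over the alternatives (-0.25 to 0.33). Ifng and Tnf, singled out after their values were seen, overlapped between the groups.

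**Figure D3:**
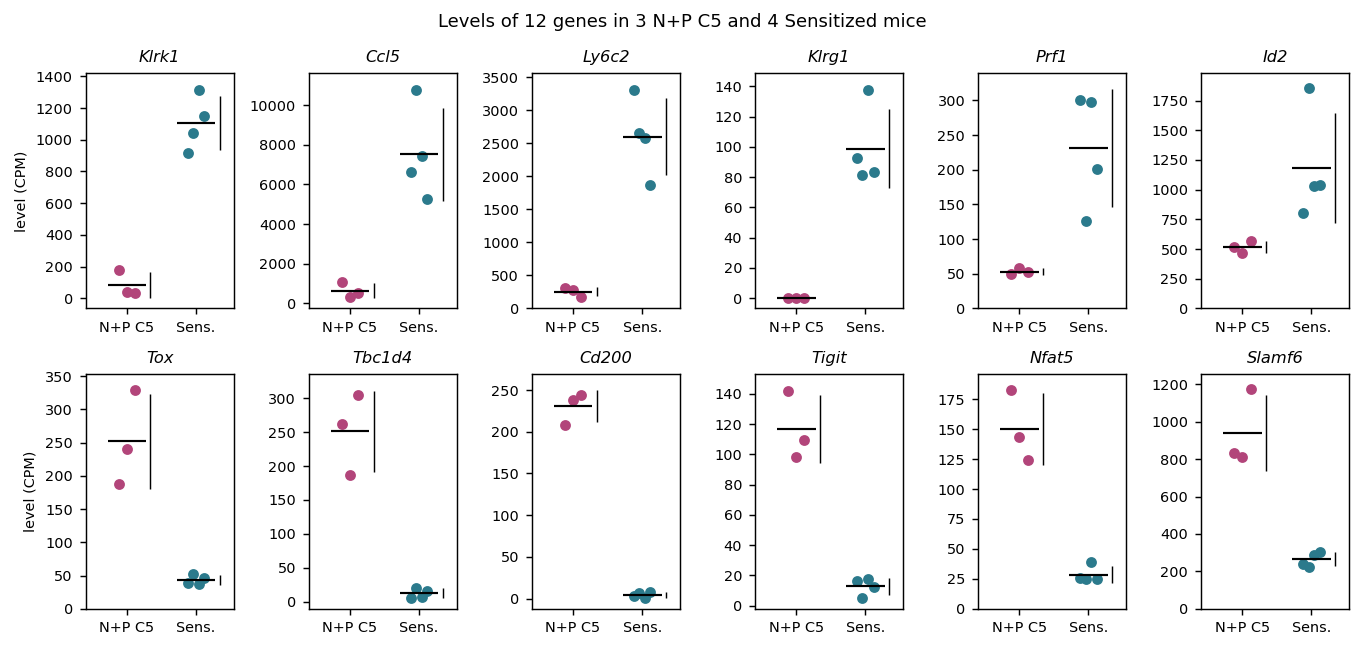
Levels (CPM, linear axes) of 12 genes in the 3 N+P C5 mice and the 4 Sensitized mice. Each point is 1 mouse, the horizontal bar is the group mean and the vertical line the mean ± SD. The upper row shows genes lower in N+P C5 and the lower row genes higher in N+P C5. The 2 groups do not overlap in any panel, but most of these genes were chosen by a rule that required no overlap.

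Part of the inhibitory receptors had higher values in N+P C5. Of 12 tested, none passed both thresholds, 3 had an unadjusted p under 0.05 with higher values in N+P C5 (Lag3, Tigit and Cd200) against 4.18% of all genes, and none had it with lower values. Leaving aside Pdcd1, which the gate used, every N+P C5 mouse lay above every Sensitized mouse in 5 of the other 11 (these 3, Ctla4 and Btla) against 4.38% of all genes. Fitted values were higher for 9 and lower for 3 of the 12, with a median log2 fold change of 1.60, Pdcd1 included; without N+P C5 mouse 1 they were higher for 6 and lower for 6, with a median of 0.75. Cd200, a ligand that restrains cells bearing its receptor, stood at 209, 239 and 244 CPM in N+P C5 and 3.58, 6.15, 0.273 and 7.84 CPM in Sensitized. The 3 N+P C5 mice agreed closely while no Sensitized mouse reached 10 CPM (log2 fold change 5.69, SE 1.59, edgeR adjusted p = 0.596, and 1.15e-06 to 0.839 over 21 alternatives). Tigit, an inhibitory receptor that competes with the costimulatory receptor CD226, stood at 142, 98.5 and 109.5 CPM against 16.4, 4.85, 17.5 and 12.6 CPM. Lag3, which binds MHC class II, stood at 311, 309 and 217 CPM against 14.5, 0, 20.9 and 26.6 CPM, with Sensitized mouse 2 at 0. Ctla4, which removes the costimulatory ligands CD80 and CD86 from other cells, stood at 349, 197 and 213 CPM against 43.2, 98.1, 61.6 and 27.3 CPM. Btla, a receptor for HVEM, stood at 138, 115 and 156 CPM against 46.97, 36.9, 36.1 and 37.8 CPM. The other 6 receptors of the list, among them Havcr2 (TIM3), Cd160 and Cd5, overlapped between the groups.

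Transcription factors of the antigen response were higher by their fitted values in 12 of 15 cases. None passed both thresholds, 5 had an unadjusted p under 0.05 with higher values (Nfatc1, Nfat5, Tox, Tox2 and Maf), and 9 lay above all Sensitized mice (these 5, Egr2, Irf4, Batf and Ikzf2), against 4.18% and 4.38% of all genes, with a median log2 fold change of 1.93. Tox, which maintains CD8 T cells under chronic antigen, stood at 188, 241 and 329 CPM in N+P C5 and 38.2, 51.99, 37.3 and 46.4 CPM in Sensitized. The lowest N+P C5 mouse lay far above the highest Sensitized mouse (log2 fold change 2.54, SE 0.55, edgeR adjusted p = 0.278). Over 21 alternatives the adjusted p ran from 1.35e-11 to 0.839, past both thresholds in 8, and it was 0.00507 when the 3 samples with under 9000 genes were left out of the fit. The Tox gene is overlapped by the annotated genes Gm11802 and Gm68786, whose reads may not be separable from its own. Nfat5, a member of the NFAT family, stood at 183, 143 and 124 CPM against 25.6, 24.6, 39.01 and 24.6 CPM, and Nfatc1, which acts below the T cell receptor, at 242, 247 and 266 CPM against 121, 104, 152 and 108 CPM. Nr4a1 and Egr1, which are induced within hours of receptor engagement and were singled out after their values were seen, overlapped between the groups. Without N+P C5 mouse 3 or without Sensitized mouse 1, 3 members in place of 5 had an unadjusted p under 0.05.

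Costimulatory and follicular helper genes had mostly higher fitted values in N+P C5 (13 of 15 and 11 of 12). Of 12 follicular helper genes tested, none passed both thresholds, 3 had an unadjusted p under 0.05 with higher values (Sostdc1, Il21 and Cd200, the last of which is also in the inhibitory list), 6 lay above all Sensitized mice, against 4.18% and 4.38% of all genes, and the median was 1.75. Without Sensitized mouse 4 the 3 became 5 and the median 2.47. Il21 encodes a cytokine that supports B cells and CD8 T cells under chronic antigen, and stood at 2.12, 37.2 and 3.69 CPM in N+P C5 and at 0 in all 4 Sensitized mice. Against the limit set by 3 counts per Sensitized sample its mean was at least 154-fold higher, though mouse 2 supplied most of it. Cxcr5 and Bcl6, the receptor and the transcription factor that define follicular helper cells, overlapped between the groups. Of 15 costimulatory genes, 2 had an unadjusted p under 0.05 with higher values (Tnfsf4 and Slamf6), against 4.18% of all genes, 6 lay above and 1 (Slamf7) below all Sensitized mice, against 4.38% and 3.09%, and the median was 0.90. Tnfsf4, the ligand of OX40, stood at 20.01, 31.5 and 20.03 CPM in N+P C5, whereas the 4 Sensitized mice held 2 counts together, a ratio of 1724 (95% exact counting interval 477 to 14246). Slamf6, a receptor of progenitor-like CD8 T cells, stood at 833, 813 and 1174 CPM against 242, 226, 288 and 304 CPM (log2 fold change 1.83, SE 0.58). Such intervals and limits cover counting error only, since the libraries carried no molecular identifiers.

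Genes tied to anergy, the unresponsive state that follows receptor signalling without costimulation, gave a mixed picture. The list held 18 genes, among them ligases, diacylglycerol kinases and phosphatases. With higher values, 3 had an unadjusted p under 0.05 (Rnf128, Dusp4 and Spry1), against 4.18% of all genes, and none with lower values. All 3 were at or near 0 in the Sensitized mice (Spry1 at most 1.11 CPM). Where a mean of at least 10 CPM was required, 1 of 16 members had it. In 5 of the 18 every N+P C5 mouse lay above and in 2 below all Sensitized mice, against 4.38% and 3.09%, and the median was 0.33. Rnf128 encodes GRAIL, a ubiquitin ligase of anergic T cells, and stood at 17.9, 0.556 and 25.1 CPM in N+P C5 against 3 counts over all Sensitized mice. Cblb and Itch, further ligases of anergy, overlapped between the groups. Izumo1r encodes folate receptor 4, which marks anergic T cells together with CD73, and stood at 160.5, 163 and 125 CPM against 8.02, 0, 0.0304 and 15.7 CPM (log2 fold change 4.65, SE 1.38, edgeR adjusted p = 0.596; 2.38e-07 to 0.839 over 21 alternatives). It was present in every N+P C5 mouse and at or near 0 in Sensitized mice 2 and 3. Of 7 genes in the list of CD73, folate receptor 4 and adenosine signalling, Izumo1r was the 1 with an unadjusted p under 0.05, against 4.18% of all genes with higher values.

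**Figure D4:**
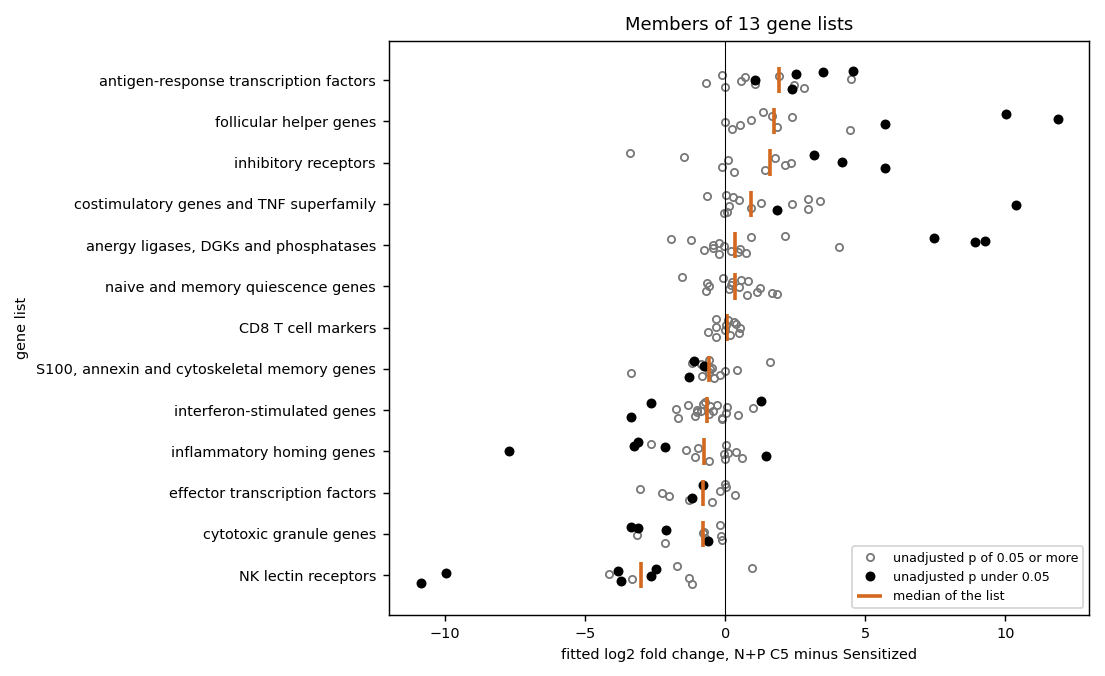
Fitted log2 fold changes, N+P C5 minus Sensitized, of the tested members of 13 gene lists, with filled points for an unadjusted p under 0.05 and a bar at each list's median. Medians run from -2.99 for NK lectin receptors to 1.93 for antigen-response transcription factors, and the CD8 T cell markers centre on 0.04.

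Of 22 interferon-stimulated genes, 1 had an unadjusted p under 0.05 with higher values (Ifi27l2a, 553, 418 and 338 CPM against 155, 195, 209 and 169.9 CPM) and 2 with lower values (Ifit3 and Ly6c2), against 4.18% and 3.9% of all genes, with a median of -0.65. In 8 of the 22 every N+P C5 mouse lay below every Sensitized mouse, against 3.09% of all genes, and in 1 above, against 4.38%. The summed level, Ly6c2 included, was 1719 to 2288 CPM in N+P C5 and 4135 to 5426 CPM in Sensitized. Ly6c2, whose levels are given above, made up a large part of the Sensitized sums and a small part of the N+P C5 sums. The 2 became 1 without any single mouse other than Sensitized mouse 4. Ifi27l2a overlaps Ifi27 on the opposite strand, and whether reads were counted by strand is not given in the sources used here. Of 17 S100, annexin and cytoskeletal genes of memory cells, 3 had an unadjusted p under 0.05 with lower values (S100a6, S100a10 and Lgals1), against 3.9% of all genes, with a median of -0.59, and this count ran from 0 without N+P C5 mouse 2 or 3, through 1 without Sensitized mouse 2 or 3, to 6 without N+P C5 mouse 1. Of 16 naive and memory quiescence genes none did (median 0.36), and Tcf7, the transcription factor of stem-like T cells, stood at 460.0, 642 and 751 CPM against 386, 386, 377 and 299 CPM without overlap (log2 fold change 0.77, SE 0.42). Of 20 cell cycle genes (median -0.52), 15 glycolysis genes (-0.32), 11 genes of the BCL2 family (0.02), 10 glucocorticoid and hormone response genes (0.03), 7 common gamma chain receptors (-0.27) and 13 mitochondrially encoded mRNAs (-0.22), none had an unadjusted p under 0.05. The glucocorticoid and hormone median was -0.70 without N+P C5 mouse 1 and 0.90 without Sensitized mouse 2, and the mitochondrial median was 0.22 without Sensitized mouse 2. Against 3.9% of all genes, there was 1 each, with lower values, among 8 genes of lymph node homing (S1pr5, median 0.05), 15 other cytokine receptors (Ifngr1, -0.13) and 84 ribosomal protein genes (Rpl3l, -0.19), the last a smaller share than over all genes. Each of these was lost without N+P C5 mouse 3, and that of Rpl3l also without N+P C5 mouse 1 or 2 or Sensitized mouse 3.

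The second gene past both thresholds was Gm4956, annotated as a transcribed pseudogene on chromosome 1 (chr1:21355832-21368351, GRCm39). It stood at 32.02, 51.2 and 86.1 CPM in N+P C5, while the Sensitized mice held 2 counts in all (0.0180, 0, 0 and 0.0260 CPM), a ratio of 3901 (95% exact counting interval 1079 to 32218; edgeR adjusted p = 0.0947). All 3 N+P C5 mice carried it and no Sensitized mouse reached 0.1 CPM. The call held in 11 of 21 alternatives (adjusted p 5.19e-15 to 0.645) and was lost whenever any 1 of the 7 mice was left out. The noncoding genes Gm71569 and Gm71089 overlap it, so its reads may not all be its own.

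Further leading genes were set apart by large differences or by near absence from 1 of the groups, without passing both thresholds. Tbc1d4, a regulator of glucose transporter traffic, stood at 262, 187 and 305 CPM in N+P C5 and 5.63, 21.1, 7.38 and 16.2 CPM in Sensitized (log2 fold change 4.32, SE 1.00, edgeR adjusted p = 0.393; 6.03e-07 to 0.839 over 21 alternatives). Spp1, which encodes the cytokine osteopontin, stood at 195, 114 and 87.7 CPM in N+P C5 against 2 counts in all Sensitized mice. Penk, which encodes the opioid precursor proenkephalin, stood at 52.3, 95.2 and 8.10 CPM and was at 0 in the Sensitized mice, at least 556-fold higher, with a wide spread among the N+P C5 mice. Cd81, a tetraspanin of the cell surface, stood at 9.58, 43.4 and 7.27 CPM and Dusp14, a phosphatase that dampens T cell receptor signalling, at 15.6, 3.74 and 19.2 CPM, both at 0 in all Sensitized mice. Spock2, a proteoglycan of the extracellular matrix, stood at 18.5, 11.2 and 11.9 CPM against 0, and Lratd1 at 29.4, 31.6 and 134 CPM against 4 counts in all. On the other side, Kcnj8, a potassium channel subunit, stood at 0.399, 0.0585 and 0 CPM in N+P C5 and 144, 132, 172 and 98.7 CPM in Sensitized. Fcgr2b, an inhibitory Fc receptor known on memory CD8 T cells, was at 0 in all N+P C5 mice and at 40.98, 19.2, 52.6 and 49.4 CPM in the Sensitized mice, at least 499-fold lower in N+P C5. Cyp17a1, an enzyme of steroid synthesis, was at 0 against 19.4, 34.6, 23.7 and 4.49 CPM, at least 253-fold lower. Dnajc15, a mitochondrial chaperone, differed less, at 156, 219 and 187 CPM against 362, 632, 414 and 316 CPM. A level of 0 means that the transcript was not detectable at this depth.

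Promoters were examined for the 25 leading genes, of which 18 had an entry in the RefSeq promoter table (GRCm38.p6, 250 bases before to 50 bases after the start). Ccl5, Cyp17a1, Gm4956, Klrg1, Penk, Tnfsf4 and Tox had none. Short core motifs of 3 factor families of T cell activation and differentiation were searched on both strands: TGANTCA for AP-1, GGTGTGA for T-box factors and CTTTGAA for TCF/LEF factors, none of which overlapped another. They occurred in 5.60%, 3.45% and 4.04% of 14739 promoters of the tested genes. Among the leading genes, 1 of 10 promoters of genes lower in N+P C5 held the AP-1 letters (Klrk1), and 1 of 10 promoters of genes higher in N+P C5 held the T-box letters (Lratd1) and 1 the TCF/LEF letters (Spock2). These 3 windows, the ones with a match among the genes named above, are shown with the matched letters in capitals. They lie at chr6:129623815-129624114 on the minus strand, chr12:14151989-14152288 on the minus strand and chr10:60106007-60106306 on the plus strand.
Klrk1: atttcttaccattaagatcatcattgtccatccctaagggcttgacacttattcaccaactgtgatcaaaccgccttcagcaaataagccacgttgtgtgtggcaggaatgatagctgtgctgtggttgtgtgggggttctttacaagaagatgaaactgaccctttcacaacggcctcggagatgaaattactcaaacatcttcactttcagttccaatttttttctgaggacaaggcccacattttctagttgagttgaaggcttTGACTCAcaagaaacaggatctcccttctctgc
Lratd1: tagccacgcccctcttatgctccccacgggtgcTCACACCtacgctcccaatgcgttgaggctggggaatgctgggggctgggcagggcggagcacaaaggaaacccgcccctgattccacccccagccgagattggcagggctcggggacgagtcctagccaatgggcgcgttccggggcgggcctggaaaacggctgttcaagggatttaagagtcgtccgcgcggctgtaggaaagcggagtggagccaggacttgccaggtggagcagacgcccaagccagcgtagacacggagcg
Spock2: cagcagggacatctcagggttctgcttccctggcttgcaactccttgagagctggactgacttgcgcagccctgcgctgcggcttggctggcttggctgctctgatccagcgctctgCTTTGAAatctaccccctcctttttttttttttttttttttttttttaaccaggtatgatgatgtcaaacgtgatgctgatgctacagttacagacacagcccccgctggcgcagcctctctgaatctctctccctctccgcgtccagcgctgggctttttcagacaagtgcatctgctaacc
The Klrk1 match begins at base 268 of the window, after the annotated start, and the Lratd1 and Spock2 matches begin at bases 34 and 118, before it. Shares of 1 in 10 promoters are too few to be set apart from the share over all genes, and a match is only a run of letters.

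Each group can also be read against the Naive mice, which serve as controls for both, so the 2 sets of differences are not independent and are given side by side. Naive mouse 1 was represented by 1 technical library, since its other library was identical to one of another group and was left out. In the same fit 9 genes (0.0458%) passed both thresholds for N+P C5 against Naive and 30 (0.153%) for Sensitized against Naive. Klrk1 was 2.36 (SE 0.54) above Naive on the log2 scale in N+P C5 (edgeR adjusted p = 0.149) and 6.10 (SE 0.63) above Naive in Sensitized (adjusted p = 1.21e-06). It was thus on the same side of Naive in both groups, and farther from it after the graft. Ccl5 likewise differed from Naive by 2.02 (SE 0.69) and 5.56 (SE 0.80), and Itgb1 by 4.59 (SE 0.58) and 3.13 (SE 0.53). The fitted values of Ly6c2 and Prf1 had opposite signs, at -0.36 (SE 0.69) and -1.14 (SE 0.63) in N+P C5 against 3.01 (SE 0.72) and 0.98 (SE 0.60) in Sensitized. Tox also had opposite signs, at 1.70 (SE 0.60) in N+P C5 and -0.84 (SE 0.54) in Sensitized, with 77.9 ± 10.9 CPM (SD, n = 3) in Naive mice. The Ly6c2 value in N+P C5 was smaller than its SE, so its side of Naive cannot be told. Both Prf1 values and the Tox value in Sensitized lay within 2 SE of 0. Cd200, Tbc1d4 and Tigit stood apart from Naive mainly in N+P C5, at 6.57 (SE 1.88), 4.09 (SE 1.11) and 4.10 (SE 1.24), against 0.88 (SE 1.42), -0.23 (SE 0.92) and 0.92 (SE 1.05) in Sensitized.

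**Figure D5:**
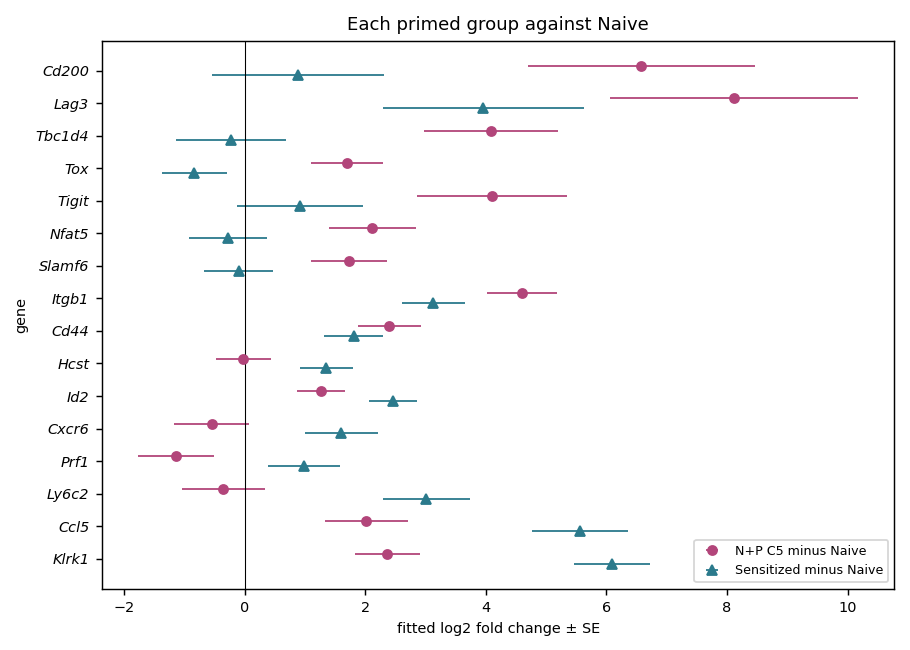
Fitted log2 fold changes against Naive mice, with SE as horizontal lines, for N+P C5 (circles) and Sensitized (triangles) across 16 genes. Both groups share the same 3 Naive mice. Klrk1 and Ccl5 lie right of 0 in both groups and farther in Sensitized, whereas Tox lies right of 0 in N+P C5 and left of 0 in Sensitized.

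Markers of other cell types were not even, from 0 for some genes to a sum of 1538 CPM for B and plasma cell markers in N+P C5 mouse 1. Cd4 was at 0 in all 7 mice, and the B cell marker Ms4a1 was at 0 in 6 and at 3.04 CPM in N+P C5 mouse 2. Transcript of the immunoglobulin heavy chain gene Ighm was found in every sample, and the 8 B and plasma cell markers summed to 363 to 1538 CPM in N+P C5 and 211 to 624 CPM in Sensitized. The 11 myeloid and dendritic markers summed to 27.3 to 62.8 CPM in N+P C5 and 51.0 to 399 CPM in Sensitized, the highest value coming from Lyz2 in Sensitized mouse 1 (332 CPM). The 6 gamma delta T cell markers summed to 11.1 to 84.8 CPM and 1.15 to 13.7 CPM, with Trdc, the defining constant region, at 1.53 to 9.21 CPM and 1.12 to 5.09 CPM. The 8 erythroid and platelet markers summed to 4.24 to 158 CPM and 0.575 to 6.30 CPM, highest in N+P C5 mouse 2. The 3 CD4 and regulatory T cell markers summed to 2.33 to 9.28 CPM and 4.04 to 28.6 CPM, with Foxp3 at 4.33 CPM in N+P C5 mouse 2 and 0 elsewhere. The part of these transcripts in the differences above was not tested.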

How the data were processed

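TFGS were sorted at 200 cells per library, amplified by SmartSeq2, prepared with Nextera XT and sequenced in a single run. The deposited values are raw counts per gene, which the authors made with cutadapt 3.4, STAR 2.6.1b on GRCm39 and featureCounts 2.0.1 after removing reads with several matches; the tools are as given in the submitters' processing notes and the study's methods. The strand option and the annotation release are not given in the sources used here. Gene models were taken from GENCODE vM39, in which 54749 of 55359 identifiers were found.

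Technical libraries were summed per mouse. In the other groups, 1 pair of identical libraries was left out and 1 pair of libraries that correlated above 0.98 was averaged as 1 sample. Of the identical libraries, 1 was labelled Naive mouse 1 and the other a graft-sensitized mouse after pregnancy. Which mouse they came from could not be worked out. All 30 samples of the 7 groups entered 1 fit with edgeR 4.0.16 in R 4.3.3 (TMM scaling, the robust quasi-likelihood test, and edgeR's own filter on low counts at its default of 10), so that they share 1 estimate of the spread. A gene was called if its log2 fold change exceeded 0.9 in size and its Benjamini-Hochberg adjusted p was below 0.1. Genes were named by rule: those past both thresholds, up to 12 in each direction with the smallest p among genes with an absolute log2 fold change above 0.9, a mean of at least 10 CPM in the higher group and no overlap, the 3 members of each list with the smallest p, and the sort markers; gene models without a proper symbol were left out of the second part. Values for other list members are given as list results, and some single genes are not reported here. The members and lists were chosen with earlier results of these data known. The fit was tested on simulated data. Alternatives were DESeq2 1.42.0, other scalings, filters, sample sets, thresholds and technical libraries, a replicate block, and each mouse left out in turn. Samples held 20623004 to 54809406 counts; counting intervals use the exact binomial form at 95%, limits for groups at 0 use 3 counts per sample, and neither covers more than counting error. The 3 Naive mice served as a shared reference and, like the other groups, also entered the fit. Single samples of a group come from separate mice.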

Additional observations from a re-analysis of the deposited data

Results flagged for a closer look

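The 51 items checked were genes and library measures. In 5 of them, all genes, 1 of the 4 Sensitized mice stood apart from the other 3. Its gap to the nearest of them took up most of the group's range (past Dixon's critical value), and chance does this in about 1 in 20 groups. Nfat5 was at 39.0 CPM in Sensitized mouse 3 and at 24.6 to 25.6 CPM in the others, and Btla was at 47.0 CPM in Sensitized mouse 1 and at 36.1 to 37.8 CPM in the others. Both stayed below every N+P C5 mouse. Spry1 was at 1.11 CPM in Sensitized mouse 1 and at or near 0 in the others. Spp1 (0.0359 CPM) and Dusp4 (0.0180 CPM) each had their only counts of the group in Sensitized mouse 1, 2 counts and 1 count. With the other mice at 0 the gap was the whole range in these genes, so the rate of 1 in 20 does not apply to them.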

How the results depend on the processing

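Fold changes of 52 genes named in the text were refitted under the 21 alternatives, and each kept its sign wherever it was tested. Cd8a, Cd8b1 and Tcf7 were not among these 52, and many of the 52 had been named for a small p. The medians of the NK lectin, inhibitory, antigen-response, cytotoxic granule, effector transcription factor and follicular helper lists also kept their signs. The medians nearest 0 (effector cytokines, BCL2 family, lymph node homing, CD8 T cell markers) changed sign when some single mice were left out. The number of genes past both thresholds (2; 1 higher and 1 lower) depended on the alternative: 915 (363 and 552) with DESeq2 on summed libraries, 684 (373 and 311) with DESeq2 and 146 (114 and 32) by edgeR where technical libraries were kept separate, 45 (23 and 22) with only these 2 groups in the fit, 32 (25 and 7) without samples under 9000 genes, 13 (9 and 4) with technical library A alone, 4 (2 and 2) with a mean of at least 10 CPM, and 1 (0 and 1) with technical library B alone, with library size as the only scaling or with an adjusted p under 0.05. Treating technical libraries as separate counts each mouse more than once. Leaving out 1 mouse gave 0 to 1 such genes, 0 higher and 0 to 1 lower: Gm4956 was lost in every case and Klrk1 without N+P C5 mouse 2 or 3. Genes at an unadjusted p under 0.05 (822 higher and 767 lower) numbered 489 to 860 higher and 162 to 844 lower when 1 mouse was left out. They numbered 1453 and 2029 without a filter, 67 and 65 with a mean of at least 10 CPM, 446 and 494 with only these 2 groups, where fewer or more genes were tested, and 1022 and 421 with technical library A alone. The causes of the other changes were not tested.

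The shared replicate numbers did not pair the mice, which were different animals: deviations from the group means correlated at 0.05, -0.003 and -0.01 for same-numbered mice. With the replicate block 5 genes passed both thresholds (2 higher and 3 lower) and 756 were higher and 303 lower at an unadjusted p under 0.05. With 200 cells per library, genes under a few CPM were the least certain.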

Other observations

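Genes outside the lists were looked at after their values were seen and carry no test beyond the fit over all genes, in which each had an adjusted p of 0.596 (edgeR). Zbtb32, a transcriptional repressor induced by activation, stood at 246, 157 and 99.8 CPM in N+P C5 and 3.29, 25.3, 10.4 and 0 CPM in Sensitized. Nrp1, a surface co-receptor known from regulatory T cells, stood at 374, 169.6 and 314 CPM against 14.7, 23.2, 18.1 and 13.6 CPM. Hif1a, the oxygen-regulated transcription factor, stood at 228, 242 and 258 CPM against 42.8, 59.4, 67.1 and 77.2 CPM. In all 3 genes every N+P C5 mouse lay above every Sensitized mouse, as in 4.38% of all genes. The 3 were picked with these values known, from a larger set that also held genes that were lower or overlapped.

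The beta chain variable segments of the T cell receptor differed between mice. Trbv12-1 took the largest share of such counts in N+P C5 mouse 1 (38.4%), Sensitized mouse 1 (50.1%) and Sensitized mouse 4 (34.7%). Trbv14 led in N+P C5 mouse 2 (14.8%) and mouse 3 (38.7%), and Trbv17 in Sensitized mouse 2 (20.2%) and mouse 3 (34.2%). The leading segment thus differed within each group. These are shares of reads per gene and do not count cells or clones.

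A set of 5 identifiers without a name in the annotation took 6.20% of the counts in Sensitized mouse 2 and at most 0.0671% in the other 6 mice. The largest was ENSMUSG00000075014, at 56034 CPM in that mouse. The calls without this mouse are among those given above.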
